A study of Mus musculus with 3 samples.

Results

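MYC peaks were examined at 10 genes of the circadian clock, of 21887 protein-coding genes in all, in the mouse pancreatic cancer line Pan02. The genes are Clock, Arntl (also called Bmal1), Per1, Per2, Per3, Cry1, Cry2, Nr1d1, Nr1d2 and Dbp. They were listed as known targets of CLOCK and BMAL1, and not for their signal in these libraries. Earlier results of these data were, however, known when the list was chosen. All 10 matched the RefSeq table of GRCm38 by symbol, and every peak with its summit inside the gene or within 5 kb of either end was taken. CUT&Tag was used, which tethers a transposase to the antibody-bound protein so that nearby DNA receives sequencing adapters. There were 3 libraries, 1 for each group: an anti-Flag library of Pan02 cells that stably express POH1-Flag, an anti-MYC library of vector cells, and an anti-MYC library of the POH1-Flag cells. POH1, the product of Psmd14, is a deubiquitinase of the proteasome. Whether the stable line is a clone or a pool is not given in the sources used here, and a Flag library of vector cells is not analysed here.

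CLOCK and BMAL1 form a dimer of the basic helix-loop-helix class and activate genes through the E-box, whose canonical form is CACGTG. PER and CRY proteins accumulate, enter the nucleus and shut that dimer down, which closes the daily loop. The nuclear receptors REV-ERBα and REV-ERBβ, encoded by Nr1d1 and Nr1d2, are made under E-box control and repress Arntl through response elements that hold AGGTCA, while DBP acts on D-boxes such as TTATGTAA and TTATGCAA. MYC, with its partner MAX, is another basic helix-loop-helix factor that binds CACGTG, so its sites and those of the clock dimer can be spelled alike.

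No group had a replicate, so no test between groups was made and nothing here measures the variation between cultures. Read numbers at each summit were recovered from the authors' fold and −log10 p, and intervals are 95% and cover counting error only. Pairs of values are given for vector and then POH1-Flag cells. Ratios between libraries compare these libraries and not the conditions. The lists held 2936 Flag, 12175 vector MYC and 22647 POH1-Flag MYC peaks, at a depth of 1.05, 1 and 1.06 relative to the vector library. Of markers of cell types, a MYC summit lay within 1 kb of a gene end in vector and POH1-Flag cells at 2 (Sox9 and Muc1) and 3 (with Krt7) of 8 ductal genes, 0 of 6 acinar genes in either, Vim and Fn1 of 4 mesenchymal genes, and Cd14 of 3 immune genes. Over all protein-coding genes the shares were 28.2% and 40.0%, and the ductal shares, 25% and 37.5%, lay near these. The marker counts are of peaks and not expression. No Flag peak lay near an end of any marker gene (0.196% of all genes).

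The promoters of 5 members are shown as examples of the E-box, D-box and AGGTCA letters beside MYC summits. Each stretch is the 250 bases before a listed start site, 5′ to 3′ on the gene's strand, from RefSeq on GRCm38.p6. Of the 9 members with a listed start, Per1 (chr11:69098699-69098948, plus strand) and Cry1 (chr10:85185055-85185304, minus strand) had a CACGTG in the windows searched, in capitals here. Per2 has no listed start and was not searched. Capitals also mark TTATGCAA in Per1 and CACGCG, a variant E-box, in Cry1. Other motif matches in the 5 stretches are left in lower case.
Per1: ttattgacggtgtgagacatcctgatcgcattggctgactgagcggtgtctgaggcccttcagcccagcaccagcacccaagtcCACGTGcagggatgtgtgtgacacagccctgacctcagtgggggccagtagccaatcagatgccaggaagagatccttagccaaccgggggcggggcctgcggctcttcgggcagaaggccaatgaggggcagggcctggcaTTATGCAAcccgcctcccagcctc
Cry1: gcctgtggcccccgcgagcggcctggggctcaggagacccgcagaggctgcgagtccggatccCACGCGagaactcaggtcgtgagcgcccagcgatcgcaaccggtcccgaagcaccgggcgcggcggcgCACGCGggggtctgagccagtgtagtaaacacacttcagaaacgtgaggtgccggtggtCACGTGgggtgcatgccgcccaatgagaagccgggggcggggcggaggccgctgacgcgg
Per3 (chr4:151044666-151044915, minus strand) is shown for its pair of D-boxes, TTATGTAA in capitals. Nr1d1 (chr11:98775378-98775627, minus strand) is shown for an E-box of the CACGTT form, read here as AACGTG on the other strand. Nr1d2 (chr14:18239107-18239356, minus strand), the member with the strongest peak, is shown with its AGGTCA in capitals.
Per3: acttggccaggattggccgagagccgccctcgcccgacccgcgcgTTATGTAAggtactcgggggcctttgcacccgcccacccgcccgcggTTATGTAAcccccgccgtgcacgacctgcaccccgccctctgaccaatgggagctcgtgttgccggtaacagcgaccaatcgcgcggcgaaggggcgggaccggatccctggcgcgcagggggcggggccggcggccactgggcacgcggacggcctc
Nr1d1: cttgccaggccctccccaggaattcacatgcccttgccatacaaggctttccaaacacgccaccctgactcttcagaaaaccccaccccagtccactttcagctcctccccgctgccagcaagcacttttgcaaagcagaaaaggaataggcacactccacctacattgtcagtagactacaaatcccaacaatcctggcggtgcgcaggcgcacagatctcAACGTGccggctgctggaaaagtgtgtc
Nr1d2: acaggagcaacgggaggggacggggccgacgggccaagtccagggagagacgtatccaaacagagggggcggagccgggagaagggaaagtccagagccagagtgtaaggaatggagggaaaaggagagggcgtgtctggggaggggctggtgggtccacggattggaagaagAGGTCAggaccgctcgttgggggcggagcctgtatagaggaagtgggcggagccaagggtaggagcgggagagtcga

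Every clock gene had a MYC peak in both cell lines, and no clock gene had a Flag peak. A MYC summit lay in the gene or 5 kb around it at 10 of 10 members in vector cells and 10 of 10 in POH1-Flag cells, where 40.3% and 55.6% of all protein-coding genes had one. Both lists had one at 10 of 10 (39.2% of all genes), so 0 of 10 had one in POH1-Flag cells only (16.4%) or in vector cells only (1.1%). A Flag summit lay there at 0 of 10, against 4.27% of all genes, and of the Flag peaks themselves 8.45% had a 10 kb background of at least 5 times the genome-wide level. The nearest Flag summit was 116 kb from the gene at Arntl and farther at each other member, up to 4554 kb at Clock. A summit within 1 kb of a gene end was found at 9 of 10 members in each MYC library, against 28.2% and 40.0% of all genes, and in both at 9 of 10 (27.6%). None had such a summit in the POH1-Flag list only (12.4%), in the vector list only (0.562%) or in the Flag list (0.196%). Arntl was the exception, and its main peak lies 28.6 and 28.8 kb inside its RefSeq gene model.

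The RefSeq promoter table lists start sites for 9 of the 10 members, and the MYC peaks lay beside them. In vector cells 8 of 9 members had a summit within 1 kb of a listed start, and in POH1-Flag cells 9 of 9, against 30.4% and 43.1% of the 17492 genes in the table. Both lists had one at 8 of 9 (30.0%), the POH1-Flag list alone at 1, Per1 (13.2%), the vector list alone at 0 (0.434%) and the Flag list at 0 (0.08%). The nearest POH1-Flag summit lay between 73 and 167 bp upstream of a start at each of the 9 except Dbp, where it lay 239 bp upstream.

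**Figure D1:**
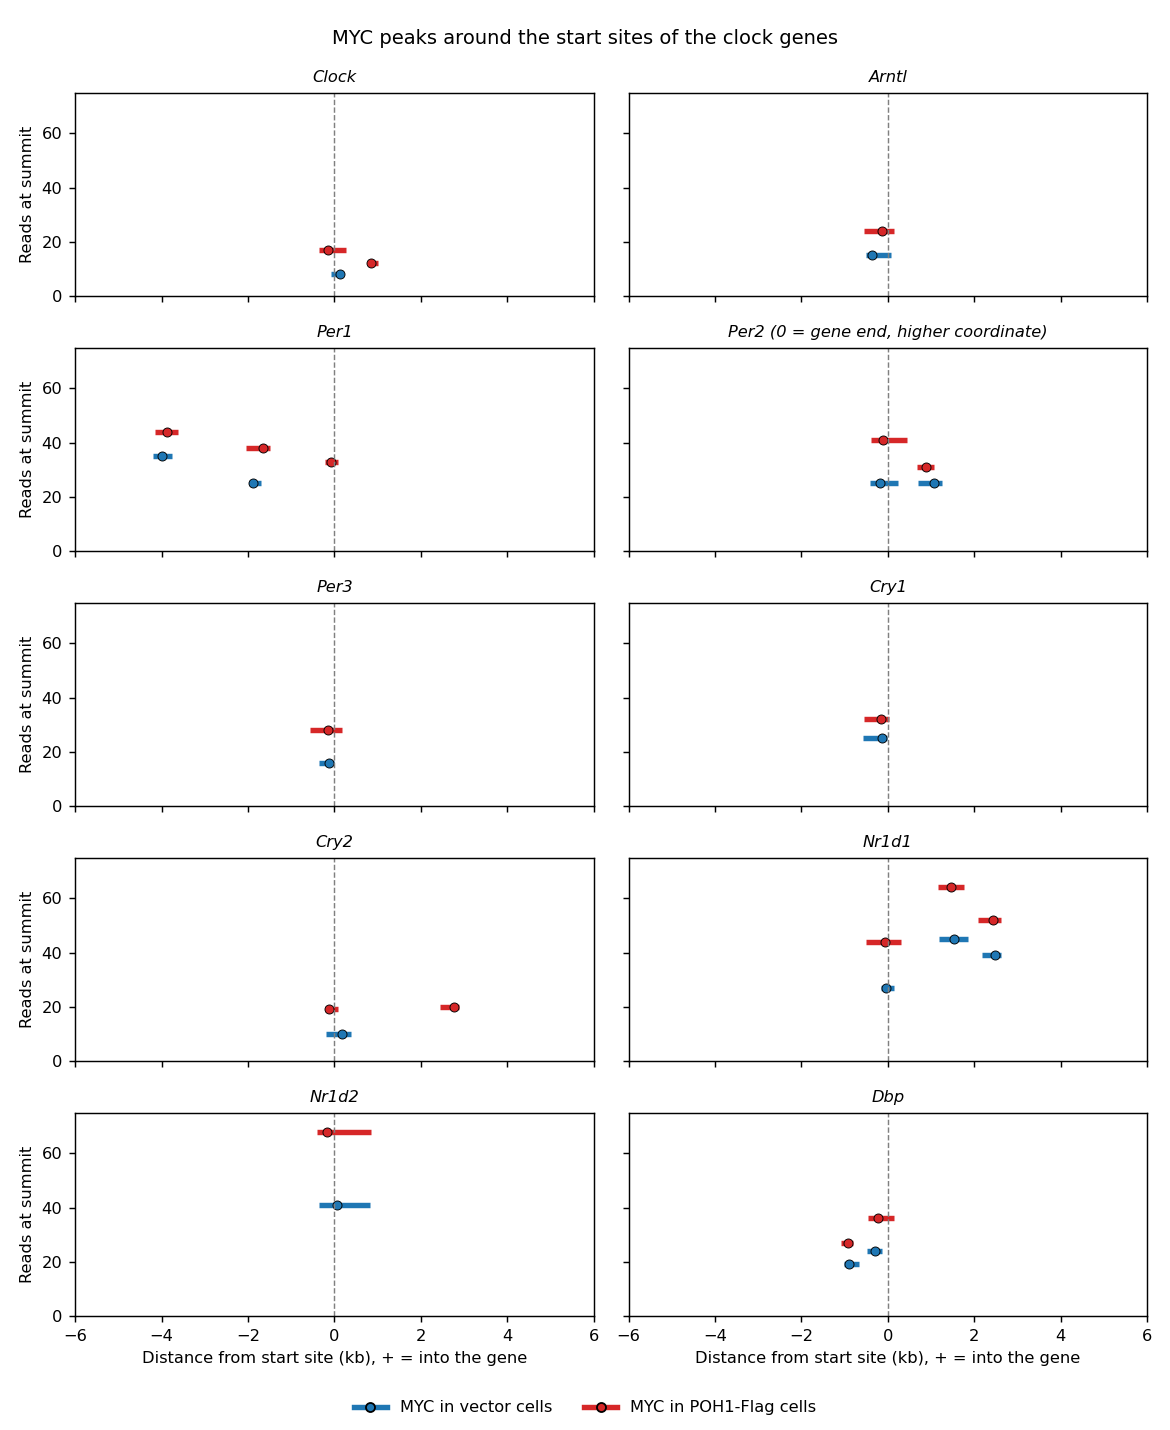
MYC peaks within 6 kb of a start site of each clock gene, in kb from the listed start that lies nearest to a POH1-Flag summit (for Per2, from the gene end at the higher coordinate). Bars span each peak, circles mark its summit, and the height is the number of reads at the summit. Peaks farther away at Arntl, Nr1d1, Per2 and Cry1 are not drawn. The POH1-Flag peak sits above its vector partner at each gene, and at Per1 the peak at the start is present in POH1-Flag cells alone.

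The activators had weak to moderate peaks. Clock, the histone acetyltransferase partner of the dimer (chromosome 5, 76209868 to 76305603), had 8 reads at its start-site peak in vector cells and 17 in POH1-Flag cells. The vector peak ranked 11943 of 12175 by −log10 q (2.03), near the foot of its list. The POH1-Flag peak was 634 bp wide against 270 bp, with a fold of 5.69 and a −log10 q of 7.52, and its summit lay 141 bp upstream of a start. A CACGCG 118 bases before a listed start lay 5 bp from the vector summit and 269 bp from the POH1-Flag summit. A further POH1-Flag peak of 12 reads, 229 bp wide, lay 440 bp upstream of another listed start and had no vector partner.

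Arntl, which encodes BMAL1 (chromosome 7, 113178471 to 113314126), carried several peaks over its 135656 bp. The start-site peak had 15 and 24 reads, was 600 and 708 bp wide and had a −log10 q of 5.72 and 11.96, with the POH1-Flag summit 148 bp upstream of a start. AGGTCA lies 31 bases after the other listed start of this gene, inside the peak of both libraries, 452 bp from the vector summit and 228 bp from the POH1-Flag summit. Another site 7.9 kb inside the gene model had 14 and 21 reads, and a further site, 52.9 and 53.0 kb into the gene from the starts, had 7 and 13. At 34.9 kb from the starts a peak of 15 reads, with a −log10 q of 5.51, was listed in POH1-Flag cells alone. In either library the start-site peak had the most reads of the Arntl peaks.

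The period genes, which encode the repressors that CRY proteins accompany into the nucleus, differed in shape. Per1 (chromosome 11, 69095108 to 69109965) had a row of peaks across its 5′ part. At the upstream end of the gene model, 35 and 44 reads lay under summits 140 and 39 bp from the gene end. A site 1.9 kb before the first listed start in vector cells, and 1.6 kb in POH1-Flag cells, had 25 and 38 reads. At that start itself, where the printed CACGTG and TTATGCAA lie, POH1-Flag cells had a peak of 33 reads with its summit 76 bp upstream, and vector cells had none. The CACGTG, 166 bases before the start, and the TTATGCAA, 24 bases before it, lie 87 and 56 bp from that summit. This peak had a fold of 2.70, the lowest of all 24 member peaks in its library, with 575 reads in the 10 kb around it.

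Per2 (chromosome 1, 91415977 to 91459351) had a pair of neighbouring sites at its higher-coordinate end. The outer site had 25 and 41 reads, with summits 194 and 110 bp beyond the gene end, widths of 657 and 831 bp and a −log10 q of 7.02 and 13.8. The inner site, 1066 and 871 bp from that end, had 25 and 31 reads. Far from it, a vector peak of 11 reads lay inside the neighbour Hes6, 616 bp from an end of that gene, and a POH1-Flag peak of 9 reads lay within Per2, 6.3 kb from its other end. The latter was among the weakest of its list, at rank 22385 of 22647.

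Per3 (chromosome 4, 150997018 to 151044707) had a single site, of 16 and 28 reads with folds of 6.43 and 7.91. Its peak was 333 bp wide in vector cells and 749 bp in POH1-Flag cells, with summits 135 and 153 bp upstream of the start. The start region is shared with the predicted gene Gm38529, whose end lay 53 and 35 bp from the summits, so these reads cannot be assigned to either gene. The nearer of the printed TTATGTAA copies, 158 bases before the start, lay 20 bp from the vector summit and 2 bp from the POH1-Flag summit, and the other, 205 bases before it, lay 67 and 49 bp away.

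The cryptochrome genes, which encode the other arm of the repressor complex, differed from each other in strength. Cry1 (chromosome 10, 85131700 to 85185054) had the higher fold, with a peak of 25 and 32 reads, folds of 8.56 and 8.85, and a −log10 q of 15.04 and 19.6. Its summits lay 130 and 152 bp upstream of the start, ranked 794 of 12175 and 1512 of 22647. The printed CACGTG lay 72 and 94 bp from them, the CACGCG 119 bases before the start 13 and 35 bp, and the copy 187 bases before it 55 and 33 bp. Within 5 kb of the other end of Cry1, POH1-Flag cells had a peak of 15 reads 15 bp from an end of Mterf2, a gene of the mitochondrial mTERF family, which is closer to it than Cry1 is.

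Cry2 (chromosome 2, 92403646 to 92434085) had a weak promoter peak, of 10 and 19 reads, with a −log10 q of 2.07 and 6.78. The summits lay 291 bp apart, 175 bp inside the gene in vector cells and 116 bp upstream of the start in POH1-Flag cells. A CACGTT in this promoter, 166 bases before the start, fell inside the peak of both libraries. It lay 339 bp from the vector summit and 48 bp from the POH1-Flag summit. A peak of 20 reads 2.8 kb into the gene was listed in POH1-Flag cells alone.

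The REV-ERB genes had the highest read numbers of the 10. Nr1d2 (chromosome 14, 18204056 to 18239106) had 41 and 68 reads in peaks 1179 and 1246 bp wide, the widest of all member peaks in each library. Its −log10 q of 21.8 and 40.2 ranked 268 of 12175 and 108 of 22647, within the top 2.201% and 0.477% of the lists. No E-box of any form searched was found in the Nr1d2 window from 250 bases before to 50 after the start. Its AGGTCA lay 144 bp from the vector summit and 92 bp from the POH1-Flag summit.

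Nr1d1 (chromosome 11, 98767932 to 98775377) had 3 sites within the gene and at its start. The strongest, 1539 and 1459 bp inside the gene, had 45 and 64 reads and a −log10 q of 14.3 and 20.8. A neighbouring site, 2478 and 2437 bp inside, had 39 and 52 reads. At the start site there were 27 and 44 reads, with summits 45 and 73 bp upstream and peaks 305 and 804 bp wide, and the printed AACGTG, 28 bases before the start, lay 19 and 47 bp from the summits. The gene overlaps Thra, the thyroid hormone receptor α gene, at its other end, and a site of 10 and 19 reads in the 5 kb beyond it lay inside Thra.

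Dbp (chromosome 7, 45705100 to 45710203), the E-box driven output gene of the D-box pathway, had 2 sites before its start. The stronger had 24 and 36 reads, with summits 301 and 239 bp upstream of the start and a −log10 q of 7.43 and 12.1. The other had 19 and 27 reads and lay inside Car11, a gene of the carbonic anhydrase family, 339 and 364 bp from an end of that gene. The stronger site lay 259 and 321 bp from the same end, so reads between Car11 and Dbp cannot be assigned to either gene.

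At all 18 shared sites of the 10 genes the reads were more numerous in POH1-Flag cells, and their median ratio lay between that of all shared MYC sites and that of the ones near gene ends. Divided by the genome-wide background of each library, the ratio of POH1-Flag to vector cells ran from 1.27 at the inner Per2 site to 2.17 at Clock, with a median of 1.596 (log2 0.67). That background was 0.845 and 0.826 reads per position in vector and POH1-Flag cells, so the division raised these ratios slightly. At 9928 shared MYC sites over the genome the median log2 ratio was 0.63, and at 5186 of them near a gene end 0.71. A ratio above 1 was seen at 91.0% and 98.2% of these. Summed over the 18 sites, 410 vector and 618 POH1-Flag reads gave a ratio of 1.54 (1.36 to 1.75).

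For single clock genes the counting intervals were wide. The interval lay above 1 at 2 of 18 sites, against 20.2% of all shared sites and 24.8% of those near a gene end. These were Nr1d2, with a ratio of 1.70 (1.14 to 2.56), and the start site of Nr1d1, with 1.67 (1.01 to 2.80). Without the division by the genome-wide background, the lower limit at this Nr1d1 site would fall below 1. At the outer Per2 site the ratio was 1.68 (0.996 to 2.88) and at the strongest Nr1d1 site 1.46 (0.979 to 2.18). The largest ratio, at Clock, rested on 8 and 17 reads and had the interval 0.889 to 5.82. Summits of the libraries lay 236 bp apart at Nr1d2 and 274 bp at Clock, so these ratios compare reads at different positions. A limit of 200 bp between summits left 13 sites, all with a ratio above 1 (median log2 0.62). It dropped Nr1d2, Clock and sites of Arntl, Per1 and Cry2. At Cry1 (1.31, 0.752 to 2.31) and the upstream Per1 site (1.29, 0.806 to 2.07) no difference could be detected with this many reads.

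**Figure D2:**
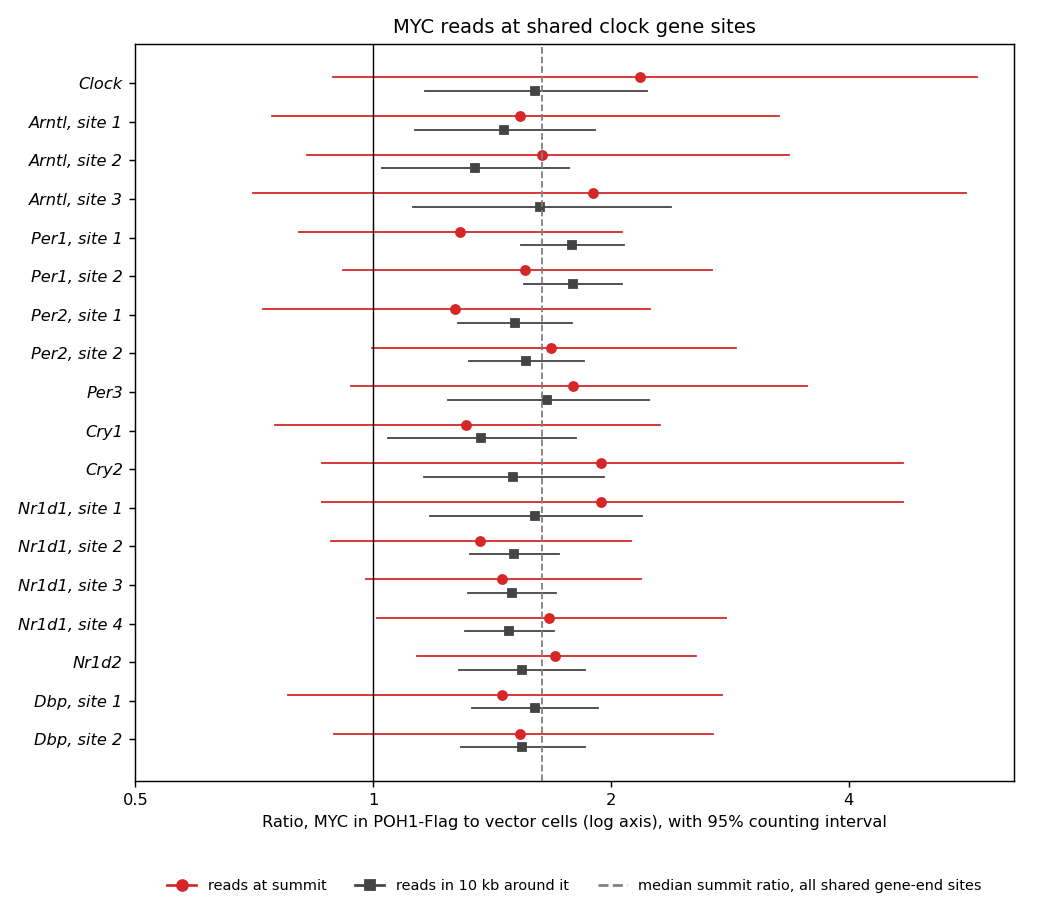
Ratio of MYC reads in POH1-Flag to vector cells at the 18 shared sites, on a log axis, for reads at the summit (red circles) and in 10 kb around it (grey squares), with 95% counting intervals. Each was divided by its own genome-wide background, which raised the summit ratios slightly and lowered the 10 kb ratios. Sites are numbered by rising coordinate within a gene. All points lie above 1, and the red points lie on both sides of the dashed line at 1.64, the median of 5186 shared gene-end sites.

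The reads in the 10 kb around the peaks differed widely among the clock genes. The background of each peak could be read as a whole number of reads in 10 kb. It is taken here as reads of the same library, peaks included, although the sources do not state whether a control library was used. At Nr1d1 this was 386 reads in vector cells and 608 in POH1-Flag cells at the start site, where the genome-wide level is 38.6 and 40.9 reads. Per1 had 272 and 515 reads around its upstream site, the outer Per2 site 226 and 374, the stronger Dbp site 198 and 324, and Nr1d2 194 and 317. The lowest were Clock, Per3, Cry1, Arntl and Cry2, which had 63 to 96 reads in vector cells and 107 to 153 in POH1-Flag cells at the strongest shared site of each.

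A background of at least 5 times the genome-wide level was found at 9 of 19 member peaks in vector cells and 11 of 24 in POH1-Flag cells, where 6.61% and 12.7% of all peaks had one. In each library these peaks belonged to the same 5 genes, Per1, Per2, Nr1d1, Nr1d2 and Dbp. Neighbouring peaks of a gene share most of a 10 kb window, so the peaks are not independent. The authors' fold is taken against this background, so equal reads give a lower fold where the surroundings hold more. At Nr1d1 44 reads gave a fold of 3.39, while at Per3 28 reads gave 7.91.

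The reads in 10 kb, which are more numerous, gave narrower counting intervals for the ratio of the POH1-Flag to the vector library. These ratios were divided by the genome-wide levels of 38.6 and 40.9 reads in 10 kb, which lowered them. At the strongest shared site of each gene the ratio ran from 1.35 (1.03 to 1.77) at Arntl to 1.79 (1.54 to 2.08) at Per1, with a median log2 ratio of 0.63 against 0.66 at all shared gene-end sites. The interval lay above 1 at all 10 of these sites, and at 71.8% of all shared sites and 82.9% of those near a gene end. Over all 18 sites, whose windows partly overlap, the ratio was above 1 at 18, as at 90.8% and 99.0% of those sets. Nr1d1 had 1.498 (1.32 to 1.71) in the 10 kb around its strongest site, and Nr1d2 1.54 (1.29 to 1.85). At the same 10 sites the median log2 ratio of reads at the summit was 0.73. When each summit was divided by its own 10 kb background, the median log2 ratio was 0.09 over the 18 sites, with 10 above 1 and 8 below. That division moved the median of all shared gene-end sites to 0.06.

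**Figure D3:**
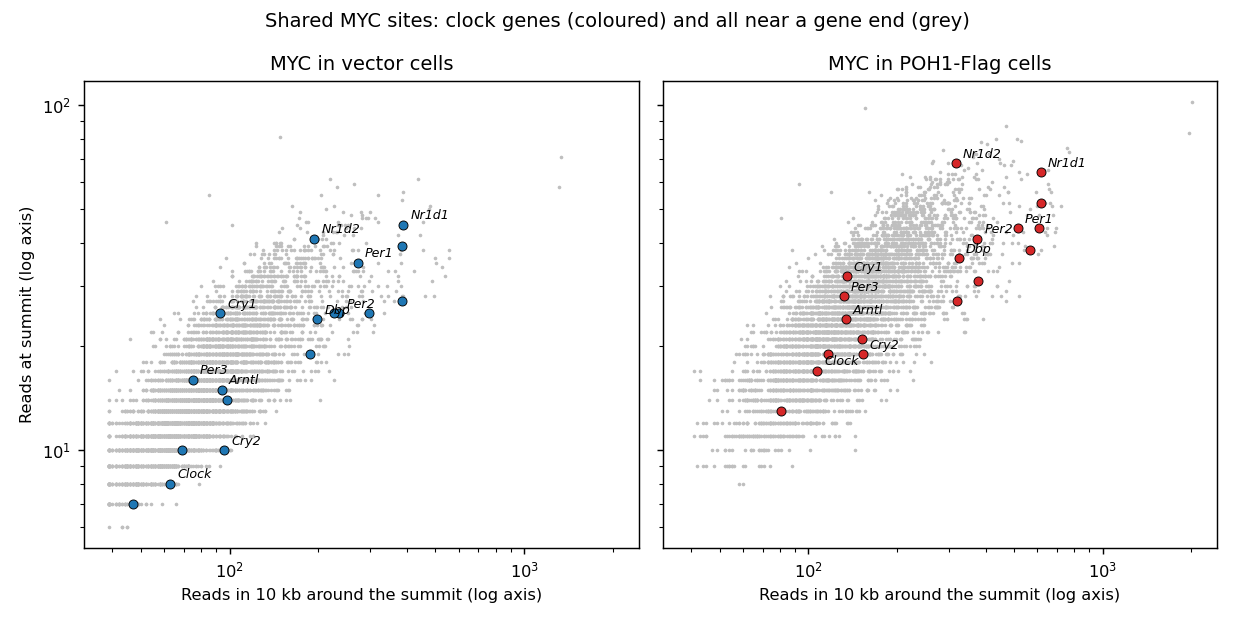
Reads at the summit against reads in the 10 kb around it, both on log axes, for the 18 shared clock gene sites (coloured, the strongest of each gene named) and 5186 shared sites near a gene end (grey), in vector cells (left) and POH1-Flag cells (right). Nr1d1, Per1, Per2 and Dbp lie towards the right edge of the grey cloud in both libraries, with 198 to 388 reads in 10 kb in vector cells at the sites named.

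Most member peaks had a partner in the other MYC list. Of the 24 POH1-Flag peaks 6 had none, at Clock, Arntl, Per1, Per2, Cry1 and Cry2, with 9 to 33 reads, against 56.2% of all POH1-Flag peaks. Of the 19 vector peaks 1 had none, at the Hes6 side of Per2, against 18.5% of all vector peaks. More peaks in POH1-Flag than in vector cells were found at 5 of 10 members (Clock, Arntl, Per1, Cry1 and Cry2), against 31.7% of the 8818 genes with a vector MYC peak. At Cry1 the additional peak is the one beside Mterf2. Where a list holds no peak it gives no read number, so no ratio can be formed at these sites. Of the members, 4 (Arntl, Per1, Per2 and Nr1d1) had 3 or more peaks in POH1-Flag cells, against 7.47% of all genes. That share includes genes without any peak, while every member had one, and gene length was not taken into account. The position of the summit also moved between libraries, by 4 to 291 bp with a median of 82 bp at member sites, against a median of 68 bp at all shared sites.

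The 9 members in the promoter table have 13 windows of 300 bases, which were searched for motifs on both strands. CACGTG was found in 2 of the 13 windows (Per1 and Cry1), against 7.84% of 21263 windows of protein-coding genes. CACGCG was found in 6 of 13 windows (Clock, Per1, Per3, Cry1, Cry2 and Dbp), against 12.1%, and CACGTT in 3 of 13 (Cry1, Cry2 and Nr1d1), against 4.68%. The looser CANNTG, which includes CACGTG, was found in 7 of 13 windows, at 6 members, against 69.0%. TTATGTAA (Per3) and TTATGCAA (Per1) were each found in 1 of 13 windows, against 0.894% and 0.790%. AGGTCA was found in 4 of 13 (Clock, Arntl, Per1 and Nr1d2), against 14.7%, and TGACGTCA in 0 of 13, against 2.23%. Windows of a gene with several starts are not independent, and bases outside these windows were not searched. A match describes the letters and is not a measured binding site.

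Most of the other clock genes also had a MYC peak near a gene end. Of 28 further clock genes, 18 had a MYC summit within 1 kb of a gene end in vector cells and 21 in POH1-Flag cells, and none had a Flag summit there. Over all protein-coding genes these shares were 28.2% and 40.0%. In the comparison list of 13 genes of the MYC, MAX and MXD network, which share the E-box, the count was 7 in each MYC library. All 3 genes of E-box repressors, all 9 of kinases and ubiquitin ligases that act on clock proteins, all 6 of partners and both of outputs had a gene-end peak in POH1-Flag cells. The paralogues of the activators, Npas2 and Arntl2, had none in either MYC library, and of the 3 D-box factors (Tef, Hlf and Nfil3) Tef alone had one.

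Named by their −log10 q in POH1-Flag cells, the strongest of these were Nampt, the NAD salvage enzyme gene (40 and 49 reads, ratio 1.25, 0.809 to 1.95), and Ciart, a repressor of the CLOCK and BMAL1 dimer (49 and 57 reads, 1.19, 0.798 to 1.78). Next came Wee1, a kinase that restrains mitosis (26 and 50 reads, 1.97, 1.20 to 3.29), and Gsk3b, a kinase of clock proteins (20 and 40 reads, 2.05, 1.17 to 3.69). Bhlhe40, an E-box repressor gene, had 30 and 41 reads, and Tef, a relative of Dbp, had 16 and 28. The F-box genes Fbxw11 and Btrc, whose products mark PER proteins for degradation, had 20 and 25 and 11 and 22 reads. Wee1 and Gsk3b were the 2 of 17 genes with a site in both lists whose interval lay above 1, against 24.8% of all shared gene-end sites. The median ratio of the 17 was 1.495, and Usf2 was lowest, with 18 reads in each library and 1.02 (0.502 to 2.08). Of the 28 genes, 3 (Nono, Sirt1 and Csnk1e) had a gene-end peak in POH1-Flag cells alone, of 11, 12 and 13 reads, against 12.4% of all genes.

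**Figure D4:**
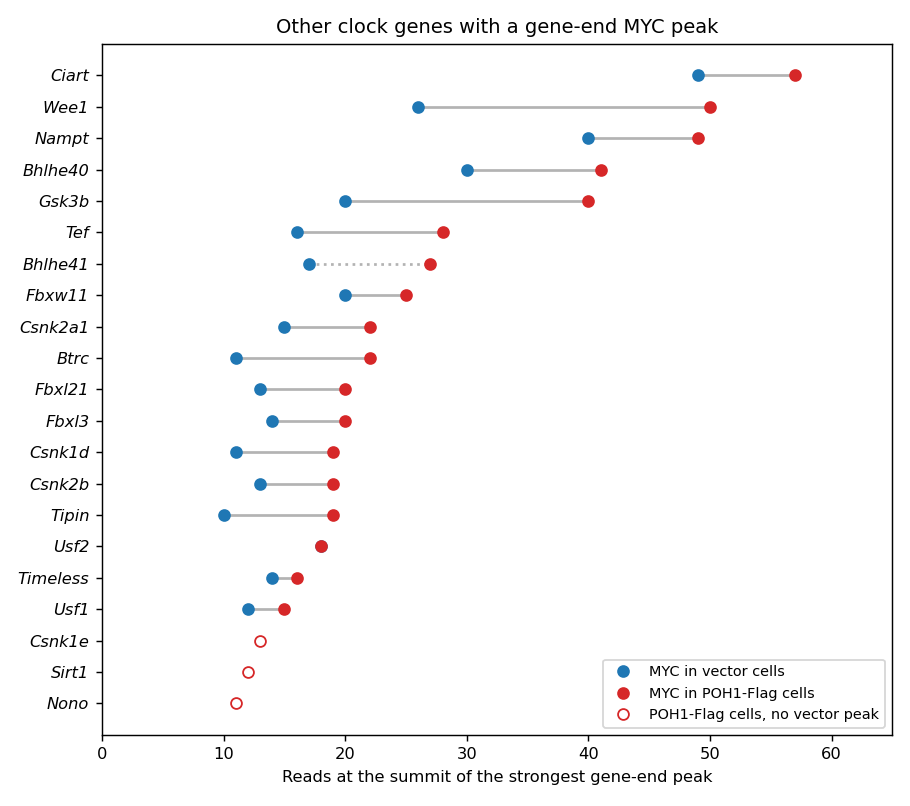
Reads at the summit of the strongest gene-end MYC peak at 21 further clock genes, in vector cells (blue) and POH1-Flag cells (red). Lines join the libraries (dotted where the peaks are at different sites), and open circles are genes with no gene-end peak in vector cells. Ciart, Wee1 and Nampt are highest in POH1-Flag cells, with 57, 50 and 49 reads.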

How the data were processed

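There were 3 CUT&Tag libraries of Pan02 cells, 1 per group as the titles give it. The submitters' processing notes list, without roles, MACS2 2.2.7.1, BWA 0.7.17-r1188, Trim Galore 0.6.6, FastQC 0.11.9 and the build GRCm38/mm10. How duplicates were handled, and any control library or blacklist, is not stated in the sources used here. The peak lists have no header. The authors' deposited values are a fold enrichment (a linear ratio), −log10 p and −log10 q per peak, a score of 10 times the −log10 q, and positions in bp. They describe peaks within a list only.

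Whole reads at each summit were solved from fold = (reads + 1)/(background + 1) and the Poisson tail, and came out whole, within 0.01 of a read step, for 100% of peaks in each list. The backgrounds equalled whole reads in 10 kb, within 0.1 read, for 100% of the peaks above the genome-wide level (the lowest background), with fragments of 233, 219 and 202 bp. Kept duplicates would make the intervals too narrow. Shared sites were each other's highest overlapping peak, by at least 1 bp. Ratios have exact conditional Poisson intervals. The steps were tested on simulated data. Python 3.11.15, NumPy 2.4.6, pandas 2.3.3, SciPy 1.17.1 and Matplotlib 3.10.9 were used. The named genes were all 10 members, up to 8 other clock genes by −log10 q in POH1-Flag cells, and neighbours with an end within 1 kb of a member summit. Members, lists and alternatives were chosen with earlier results of these data known. Alternatives were stricter thresholds, other distances, overlaps and scalings, and start sites in place of gene ends. Some results on the other clock genes are not reported here.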

Additional observations from a re-analysis of the deposited data

How the results depend on the processing

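With a −log10 q of at least 10, the members with a peak in the window numbered 4 in vector and 8 in POH1-Flag cells. Those with a gene-end peak numbered 3 and 6. With a −log10 q of at least 5, the window counts were 8 and 10 and the gene-end counts 6 and 9. With a fold of at least 5, the window counts were 5 and 7 and the gene-end counts 4 and 4. Shares of all genes at these thresholds are not given here, so these counts cannot be set against a genome-wide share. With a −log10 q of at least 5 in both lists, 2 members (Clock and Cry2) had a peak in POH1-Flag cells only, where none did before. The share of all genes at that threshold is not given here either, so this count cannot be read as particular to the members. Dividing each summit by its own 10 kb background moved the median log2 ratio from 0.67 to 0.0859, and 4 of 18 single sites left their counting interval. These were the shared Per1 sites, the strongest Nr1d1 site and Nr1d2, where the log2 ratio went from 0.763 to 0.138. The other distances, overlaps and scalings moved no count of members by over 1.5 times. With these, and with the sites of any 1 gene left out (medians of 0.64 to 0.72), the median log2 ratio stayed between 0.443 and 0.809. Those limits are the counting interval of the ratio of summed reads, since the median has none of its own. Counts of 7 to 68 reads limit each ratio. No paired analysis was possible because each group has 1 library.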
